A study of Mus musculus with 10 samples.

Results

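Pancreatic islets lacking FIT2 in β cells were compared with floxed control islets over 50 genes that carry newly made proteins into and out of the endoplasmic reticulum (ER). The genes were taken by name from the deposited expression table of 47340 genes. They encode the translocon, the signal recognition particle and its receptor, the translocon-associated protein complex, signal peptidase, the COPII and COPI coats, cargo receptors and the KDEL receptors. Each of the 50 had 1 row in the table, and 49 reached a mean of at least 1 FPKM (sequenced fragments scaled to the exon length of the gene and to the depth of the library) in a group.

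Control mice (FL) were Fit2 fl/fl littermates, which carry loxP sites on both copies of Fit2 and which the labels also give the genotype wild type. Knockout mice (KO, βFIT2KO) carried the same floxed alleles and, in addition, Cre recombinase driven by a rat insulin promoter, which is active in β cells. All were males of 12 wk on a chow diet, with 5 mice and 5 libraries in each group. Islets were kept overnight in CMRL medium before polyadenylated RNA was taken. No library of mice with Cre alone was analysed here, so that the transgene and the Fit2 deletion cannot be told apart.

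Secretory proteins such as proinsulin are marked by a signal peptide. The signal recognition particle binds it on the ribosome and docks at the ER, the chain enters through the SEC61 channel, and signal peptidase removes the signal peptide. Folded cargo leaves in COPII vesicles, and COPI vesicles bring escaped ER residents and receptors back from the Golgi. In β cells, which export large amounts of insulin, this traffic makes up much of the work of the ER.

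Fit2 itself (symbol Fitm2) was measured first as a check of the labels. It stood at 15.5 to 37.1 FPKM in the FL libraries and at 4.30 to 9.13 FPKM in the KO libraries, a log2 change of −1.58 ± 0.28 (SE) with a limma adjusted p = 0.00228. The groups did not overlap. Depth, estimated from the spacing of the lowest values, ranged from 1.41 to 2.41 times that of FL library 1 in the other FL libraries and from 1.51 to 2.05 times in the KO libraries. β cell marker genes were present at a summed 2774 to 3384 FPKM in FL and 1869 to 2666 in KO, but Iapp and the α cell gene Gcg were listed at 0 in all 10 libraries.

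Of the 49 members tested, 10 (20.4%) were higher in KO islets (limma, adjusted p of at most 0.05), beside 9.05% of all 13065 genes tested. Only 2 members (4.08%) were lower, beside 16.5% of all genes. Every KO library lay above every FL library for 8 members (16.3%, beside 6.67% of all genes) and below for 3 members (6.12%, beside 12.5%). The median log2 fold change was 0.02 over the members and −0.06 over all genes tested. In these bulk samples fewer cells of a type and less RNA per cell cannot be told apart. Under 4 rescalings of the libraries (median ratio, upper quartile, quantile normalization and TPM, which gives each library the same sum), 16, 16, 17 and 11 members were called higher, beside 12.4%, 12.8%, 11.4% and 10.6% of all genes. Under each of these rescalings 2 members were called lower, beside 11.7%, 11.1%, 13.1% and 11.7% of all genes. By the exact Wilcoxon rank test 8 members were higher and 3 lower, beside 6.67% and 12.5% of all genes.

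The 2 largest changes were in genes of low abundance, the KDEL receptor gene Kdelr3 and the cargo receptor gene Tmed6. The remaining 8 members called higher, Sec63, Srp19, Srpr, Ssr4, Sec11c, Sec13, Sec24a and Tmed3, differed by 0.22 to 0.36 on the log2 scale. The 37 members tested and not called had log2 fold changes from −0.15 to 0.21, and the 95% confidence interval of each lay within ±0.5.

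**Figure D1:**
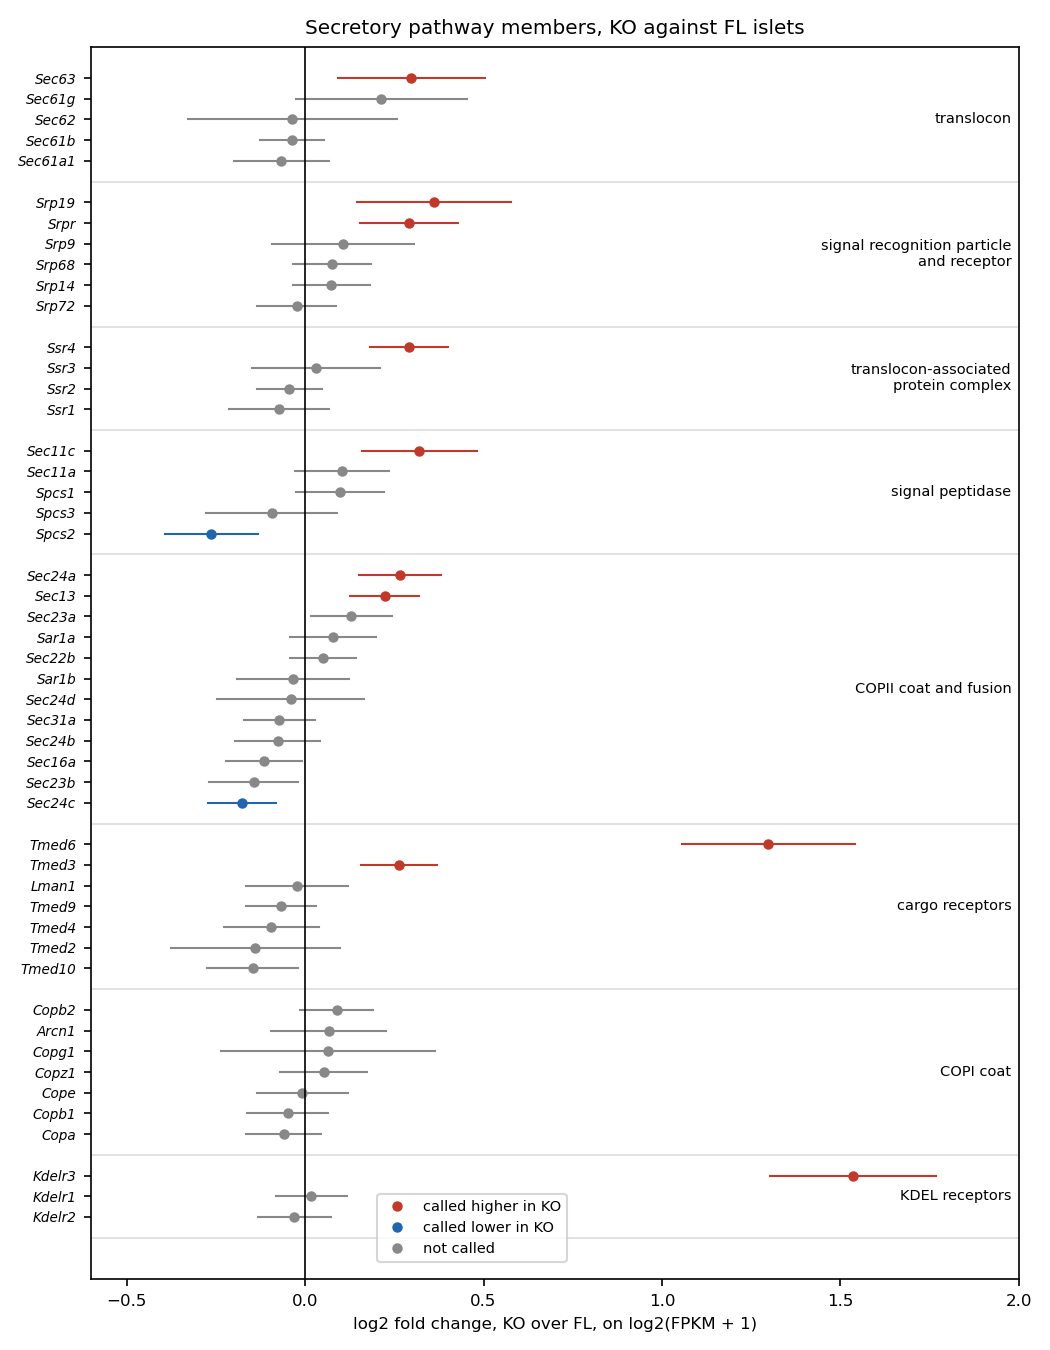
Log2 fold change, KO over FL, on the log2(FPKM + 1) scale for the 49 members tested, grouped by role. Points are limma estimates, lines their 95% confidence intervals, red marks members called higher in KO, blue lower and grey not called; Kdelr3 and Tmed6 stand at 1.54 and 1.30, and all others lie between −0.26 and 0.36.

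The bases before the start of Kdelr3 and Tmed6 are shown because these genes changed most, and because ER stress factors of the XBP1 and ATF6 families bind known short motifs near genes of this pathway. Sequences are those of RefSeq on GRCm38.p6, written 5′ to 3′ on the gene's strand and ending at the base before the start that RefSeq gives. Positions count from that RefSeq start, which for Kdelr3 lies a few bases before the GENCODE start given further on with its values. Capitals mark the XBP1/ATF6 site TGACGTGG, here on the opposite strand, as CCACGTCA. It spans bases −30 to −23 from the start in Kdelr3, and the sequence shown for Tmed6 does not hold these letters.
Kdelr3, chr15:79516158-79516407, strand +: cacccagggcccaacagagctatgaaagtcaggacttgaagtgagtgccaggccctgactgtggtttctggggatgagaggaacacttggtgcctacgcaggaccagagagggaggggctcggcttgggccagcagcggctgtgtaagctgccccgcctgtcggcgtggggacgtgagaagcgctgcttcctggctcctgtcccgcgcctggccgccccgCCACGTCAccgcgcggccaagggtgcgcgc
Tmed6, chr8:107065645-107065894, strand −: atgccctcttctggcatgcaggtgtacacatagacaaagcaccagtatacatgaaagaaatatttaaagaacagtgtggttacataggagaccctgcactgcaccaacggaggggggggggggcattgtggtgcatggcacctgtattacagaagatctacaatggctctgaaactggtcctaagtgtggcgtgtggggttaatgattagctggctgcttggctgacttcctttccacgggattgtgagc

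A promoter of 300 bases (250 before and 50 after the start) was at hand for 40 members, and 4 motifs were searched on both strands. TGACGTGG was found in 5 of the 40 (12.5%), namely Sec23a, Sec24d, Copb1, Copb2 and Kdelr3, beside 0.714% of all 27025 genes with a promoter and 1.06% of the 9631 of them tested here. Of these 5 genes, Kdelr3 was called higher in KO, and the other 4 were not called. Its inner letters ACGTG were found in 26 of the 40 (65.0%), beside 21.8% of all genes and 29.7% of the tested ones, and this count includes the 5 genes above. The ER stress response element, CCAAT and CCACG with 9 bases between them, was in none of the 40 and in 0.137% of all genes. Its second form, ATTGG and CCACG with 1 base between them, was likewise in none of the 40 and in 0.0444% of all genes. These matches describe letters in a fixed window and are not evidence of binding.

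ACGTG was present in 6 of the 8 members called higher that had a promoter (Sec63, Srpr, Sec13, Sec24a, Tmed3 and Kdelr3). Over all 40 members with a promoter it was present in 26 (65.0%), a share near that of the members called higher. The bases around the motif are shown for Sec63 and Tmed3, with capitals marking ACGTG or its reverse complement CACGT. Tmed3 holds a second match after its start, at bases 32 to 36, which is not shown. The Kdelr3 sequence shown above also holds ACGTG outside its capitals, where it is not marked.
Sec63, chr10:42761449-42761495, strand +: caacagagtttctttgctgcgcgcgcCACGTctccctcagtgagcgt
Tmed3, chr9:89705214-89705270, strand −: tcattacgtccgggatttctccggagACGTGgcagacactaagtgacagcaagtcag

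At the ER membrane, translation is received by the signal recognition particle and its receptor. Srpr encodes the receptor subunit that docks the particle, and it measured 273, 299, 288, 318 and 302 FPKM in FL libraries 1 to 5. KO libraries 1 to 5 held 387, 376, 371, 359.6 and 318 FPKM. All KO values were above all FL values, but KO library 5 exceeded FL library 4 by less than 1 FPKM. The group means were 296 ± 16.8 and 362 ± 26.5 FPKM (SD, n = 5 each), and the log2 fold change of 0.29 ± 0.06 (SE) had a limma adjusted p = 0.00656 and an exact permutation p = 0.00794, which is the smallest p that 5 against 5 libraries allow. That smallest value applies to every member whose groups did not overlap. Exons of Srpr share 39 and 50 bases with Tirap and Fam118b on the opposite strand, and whether reads were counted by strand was not given in the sources used here.

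Srp19 encodes a protein that helps assemble the particle's RNA core. Its FL libraries read 45.3, 63.4, 53.2, 44.3 and 58.9 FPKM and its KO libraries 70.7, 61.9, 71.7, 69.2 and 65.3 FPKM. The groups overlapped, since FL library 2 exceeded KO library 2. Srp19 was called higher by 0.36 ± 0.10 (SE) on the log2 scale (limma adjusted p = 0.0207, exact permutation p = 0.0159), but not by an exact Wilcoxon rank test (adjusted p = 0.0642).

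The other particle proteins tested were not called. Srp9 and Srp14, which form the domain that slows elongation, differed by 0.11 and 0.07 on the log2 scale (95% intervals −0.09 to 0.31 and −0.04 to 0.18). Srp68 and Srp72, which bind the particle's RNA as a pair, differed by 0.08 and −0.02 (intervals −0.03 to 0.19 and −0.13 to 0.09). Srp54a, encoding the subunit that holds the signal peptide, was listed at 0 in every library, while its near-identical copy Srp54b was listed at 3.71 to 5.05 FPKM in FL and 3.89 to 5.12 in KO, so that reads may have been divided between the copies and neither level is certain.

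In the channel itself, Sec63, which recruits the chaperone BiP to the lumenal side of the translocon, was the single member called of 5. FL libraries held 98.9, 122, 118, 88.9 and 120.1 FPKM and KO libraries 140.5, 139.6, 140.2, 133 and 118 FPKM. The groups overlapped, with FL libraries 2 and 5 above KO library 5. The log2 fold change was 0.30 ± 0.09 (SE) with limma adjusted p = 0.0386 and exact permutation p = 0.0238. The call was lost when single libraries were left out, as the limma adjusted p was then 0.0828 without FL library 1 and 0.0642 without FL library 4. It was 0.0841, 0.0689, 0.0726 and 0.0702 without KO library 1, 2, 3 and 4, respectively, and 0.0735 with all 24792 genes that were above 0 in any library. The exact Wilcoxon rank test did not call Sec63 either (adjusted p = 0.102).

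The pore subunits were not called. Sec61b, the most abundant translocon member, averaged 387 ± 11.2 FPKM in FL and 377 ± 11.0 FPKM in KO (log2 fold change −0.04 ± 0.04 (SE), limma adjusted p = 0.538), and the sign of this difference turned under each of the 4 rescalings tried. Sec61a1, which forms the pore, averaged 153 ± 12.4 and 146 ± 6.14 FPKM. Sec61g was listed at a low 2.43 and 2.94 FPKM, and its interval was among the wider ones (−0.03 to 0.45). Sec62, which assists the entry of short precursors, had FL library 4 high at 103 FPKM and KO library 2 low at 57.9, and its interval ran from −0.33 to 0.26.

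Ssr4 encodes the δ subunit of the translocon-associated protein complex, which sits beside the channel and aids the entry of some precursors. FL libraries measured 305, 311, 316, 324 and 300.4 FPKM, a narrow range. KO libraries measured 373, 395, 376, 411 and 352 FPKM, all above the FL range. The means were 311 ± 9.29 and 381 ± 22.5 FPKM, a KO to FL ratio of 1.23 and a log2 fold change of 0.29 ± 0.05 (SE) (limma adjusted p = 0.00184). The other 3 subunits of the complex did not pass the test: Ssr1, Ssr2 and Ssr3 differed by −0.07, −0.04 and 0.03, with upper interval limits of 0.07, 0.05 and 0.21.

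Signal peptidase held calls in both directions. Sec11c, 1 of the 2 alternative catalytic subunits and the member with the highest mean FPKM of all, read 324, 353, 345, 390.0 and 361 FPKM in FL. In KO it read 479, 410.2, 450.1, 488 and 391 FPKM. KO library 5 exceeded the highest FL library by less than 1 FPKM, so the groups were only just apart. The log2 fold change was 0.32 ± 0.07 (SE) (limma adjusted p = 0.00945). Sec11a, the alternative catalytic subunit, differed by 0.10 and was not called (limma adjusted p = 0.237). Of the FPKM summed over both, Sec11c made up 66.0% ± 1.14 in FL and 69.3% ± 1.20 in KO (SD, n = 5), and these shares overlapped.

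Spcs2, an accessory subunit of the same enzyme, was lower in KO. FL libraries held 411, 438, 409, 457 and 417 FPKM and KO libraries 348, 384, 356, 373 and 317 FPKM. No KO library reached the FL range. The mean went from 426 ± 20.9 in FL to 356 ± 25.6 FPKM in KO, a log2 fold change of −0.26 ± 0.06 (SE) (limma adjusted p = 0.00857). Spcs1 and Spcs3, the other accessory subunits, were not called, at 0.10 and −0.09 on the log2 scale. Of the 5 genes of this enzyme, Sec11c was called higher, Spcs2 lower and 3 genes neither way.

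**Figure D2:**
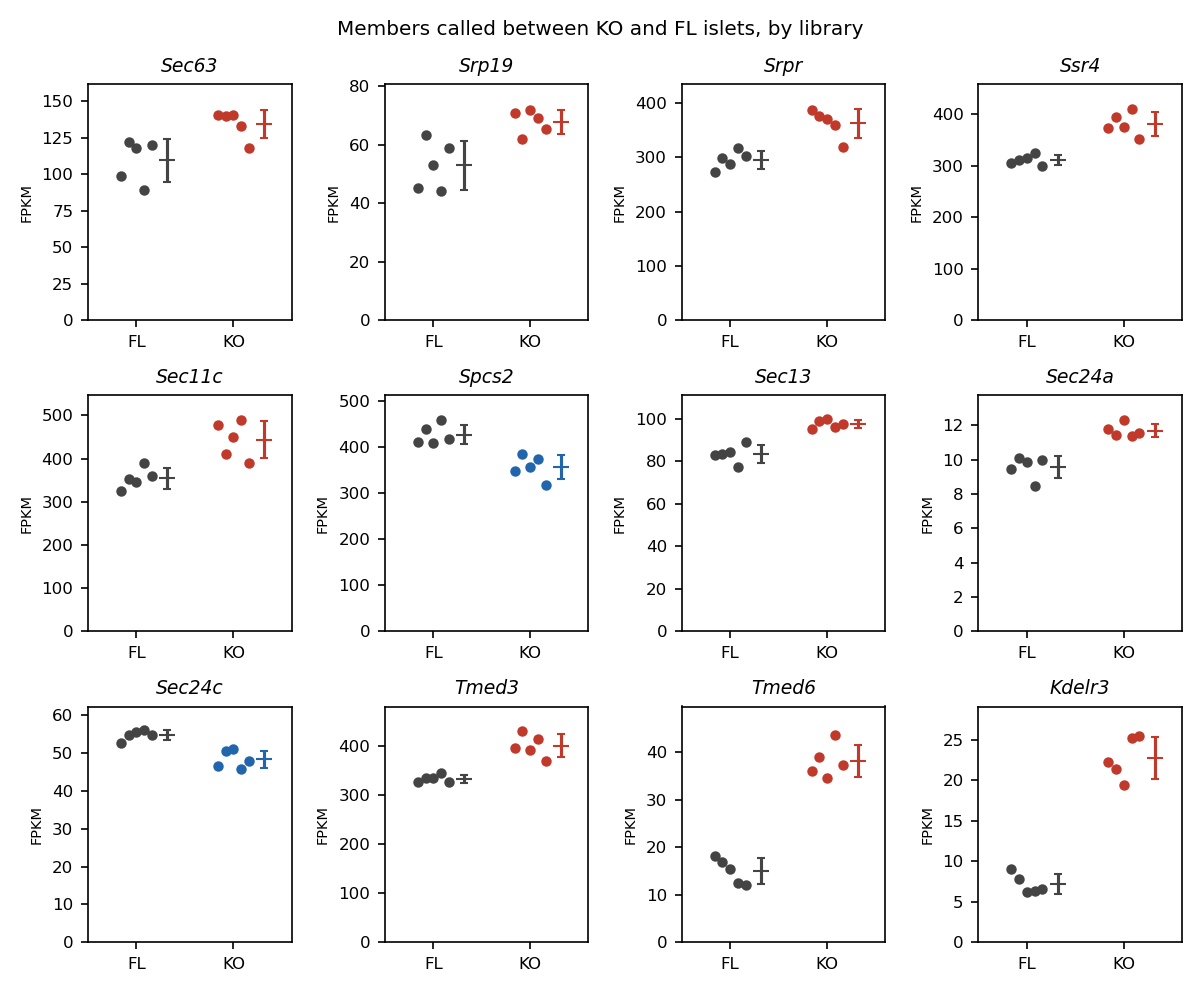
FPKM in each library for the 12 members called between KO and FL, with axes starting at 0. Dots are libraries 1 to 5 of each group from left to right, bars the mean and SD; the FL and KO dots overlap in Sec63 and Srp19 and are apart in the other 10.

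The COPII coat forms in layers. An inner layer of SEC23 and SEC24 picks up cargo on the GTPase SAR1, and an outer cage of SEC13 and SEC31 bends the membrane. Sec13 measured 82.8, 83.5, 84.1, 77.5 and 89.2 FPKM in FL libraries. KO libraries measured 94.99, 99.0, 99.7, 96.0 and 97.4 FPKM. The KO values were all higher and closely spaced, with means of 83.4 ± 4.19 and 97.4 ± 1.96 FPKM and a log2 fold change of 0.22 ± 0.04 (SE) (limma adjusted p = 0.00429). SEC13 is also part of the nuclear pore. Its cage partner Sec31a, the COPII member of the second highest level, was not called, at −0.07 (interval −0.17 to 0.03).

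The 4 SEC24 paralogs, which choose cargo, held calls in both directions. Sec24a, the least abundant per length, held 9.47, 10.1, 9.85, 8.47 and 9.99 FPKM in FL and 11.8, 11.4, 12.3, 11.4 and 11.5 FPKM in KO. All KO values were above the FL range. Its log2 fold change was 0.27 ± 0.05 (SE) (limma adjusted p = 0.00415). Sec24c held 52.5, 54.6, 55.4, 56.0 and 54.8 FPKM in FL and 46.5, 50.3, 50.9, 45.8 and 47.7 FPKM in KO. All KO values of Sec24c were below the FL range, with a log2 fold change of −0.18 ± 0.04 (SE) (limma adjusted p = 0.0132). This call was lost with a block on replicate number (limma adjusted p = 0.05004). Sec24b and Sec24d were not called (−0.08 and −0.04). As a share of the FPKM summed over the 4 genes, Sec24a went from 5.08% ± 0.377 to 6.52% ± 0.508 without overlap, and Sec24c from 29.0% ± 1.18 to 26.9% ± 1.16 with overlap.

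Sec23b, the main SEC23 paralog and the COPII member with the highest mean, averaged 174 ± 11.2 FPKM in FL and 157 ± 8.504 in KO and was not called (log2 fold change −0.14 ± 0.06 (SE), limma adjusted p = 0.0862, 0.0642 by an exact Wilcoxon rank test). Its paralog Sec23a averaged 13.8 ± 0.762 and 15.2 ± 0.738 FPKM and was not called either (limma adjusted p = 0.0895), although it was called higher under each of the 4 rescalings. Sec23a made up 7.37% ± 0.696 of the summed SEC23 FPKM in FL and 8.81% ± 0.460 in KO, without overlap. The FPKM of Sec23a itself overlapped between groups, and its share also depends on the level of Sec23b. The remaining COPII members, Sar1a, Sar1b, the scaffold Sec16a and the vesicle fusion protein Sec22b, ranged from −0.12 to 0.08 and did not pass.

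Cargo receptors of the TMED (p24) family cycle between the ER and the Golgi and sort membrane-bound cargo. Tmed6 (chr8:107061476-107065644 on GRCm38, strand −), known for its expression in pancreas, measured 18.2, 17.0, 15.5, 12.5 and 12.1 FPKM in FL libraries. KO libraries measured 36.1, 39.0, 34.7, 43.6 and 37.3 FPKM. The lowest KO library stood well above the highest FL library. Means were 15.1 ± 2.68 and 38.1 ± 3.42 FPKM, a KO to FL ratio of 2.53 and a log2 fold change of 1.30 ± 0.11 (SE) (limma adjusted p = 1.46e-05).

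Tmed3, the most abundant cargo receptor here, held 325, 334, 336, 345 and 326 FPKM in FL and 395, 431, 391.6, 413 and 369 FPKM in KO. No FL library reached the KO range. It was higher by 0.26 ± 0.05 (SE) on the log2 scale (limma adjusted p = 0.00290). Tmed10, which forms complexes with other family members and helps them leave the ER, held 107, 105, 106, 123 and 105 FPKM in FL and 101, 96.8, 104, 100.2 and 90.6 FPKM in KO. All KO values of Tmed10 were below the FL range, and it was not called by limma (log2 fold change −0.15 ± 0.06 (SE), adjusted p = 0.0884) but was called lower by the exact Wilcoxon rank test (adjusted p = 0.0415). For Tmed10, FL library 4 was far above the other FL libraries. Without that library the log2 fold change was −0.10 (limma adjusted p = 0.157).

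Tmed2, Tmed4 and Tmed9 were not called, at −0.14, −0.09 and −0.07. Of the FPKM summed over the 6 TMED members, Tmed6 made up 1.71% ± 0.329 in FL and 4.08% ± 0.350 in KO, and Tmed3 37.8% ± 0.189 and 42.8% ± 0.855. The shares of Tmed4 (20.4% ± 0.682 and 18.0% ± 1.06) and Tmed10 (12.4% ± 0.637 and 10.6% ± 0.535) were lower in KO. None of these 4 shares overlapped between groups, while those of Tmed2 and Tmed9 did. Shares of the same sum depend on each other, so that higher shares of Tmed3 and Tmed6 lower the rest. The FPKM of Tmed4 itself overlapped, at 170 to 188 in FL and 155 to 190 in KO, while that of Tmed10 did not. Lman1 (ERGIC-53), the lectin receptor for some glycoproteins, averaged 209.7 ± 8.92 FPKM in FL and 207 ± 17.9 in KO, with a log2 interval from −0.16 to 0.12.

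None of the 7 subunits of the COPI coat was called by limma, by the exact Wilcoxon rank test or at an unadjusted limma p under 0.05. Their log2 fold changes ran from −0.06 (Copa) to 0.09 (Copb2), with a median of 0.05. Cope, the ε subunit and the most abundant of them, held 400.4, 367, 403, 352 and 367 FPKM in FL. In KO it held 380.5, 376, 378, 341 and 405 FPKM. The groups covered much the same range, with a log2 fold change of −0.01 ± 0.06 (SE) (limma adjusted p = 0.939) whose sign turned under the 4 rescalings and without FL library 1 or 3 or KO library 4. Copg1, the γ1 subunit, varied most among FL libraries of all COPI genes, from 108 to 189.6 FPKM, so its interval was wide (−0.24 to 0.37). Copb2, the β′ subunit, was called higher after rescaling by median ratio, upper quartile or quantiles.

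KDEL receptors recognise the tail of ER residents such as BiP in the Golgi and return them by COPI vesicles. Kdelr3 (chr15:79516411-79527739 on GRCm38, strand +) measured 9.12, 7.79, 6.20, 6.40 and 6.64 FPKM in FL. KO libraries measured 22.3, 21.4, 19.5, 25.2 and 25.5 FPKM. The lowest KO value, in KO library 3, was above the highest FL value, in FL library 1, by more than 10 FPKM. Means were 7.23 ± 1.22 and 22.8 ± 2.57 FPKM, a KO to FL ratio of 3.15 and a log2 fold change of 1.54 ± 0.11 (SE) (limma adjusted p = 2.85e-06).

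Kdelr1 held 161, 169, 177, 182 and 164 FPKM in FL and 172, 171, 179, 172 and 169 FPKM in KO. These groups overlapped, and the log2 fold change was 0.02 ± 0.05 (SE) (limma adjusted p = 0.820). Kdelr2 was not called either, at −0.03 ± 0.05 (SE) (limma adjusted p = 0.667). Kdelr3 remained the minor receptor per length, at 2.29% ± 0.455 of the FPKM summed over the 3 genes in FL and 6.87% ± 0.822 in KO. That sum was 317 ± 12.9 FPKM in FL and 332 ± 8.69 in KO, with overlap.

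**Figure D3:**
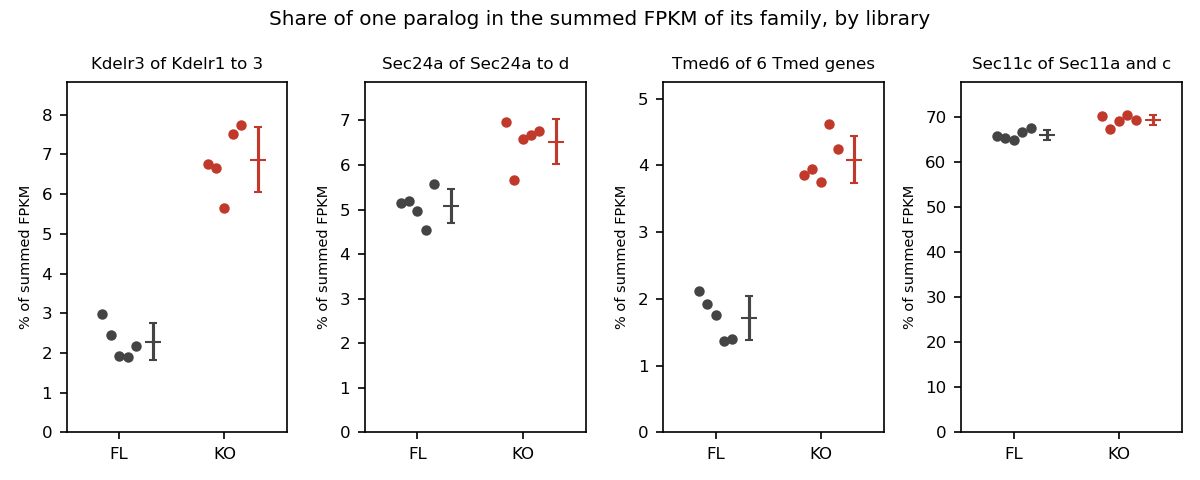
Share of Kdelr3, Sec24a, Tmed6 and Sec11c in the FPKM summed over the named members of each family, in percent, with axes starting at 0. Dots are libraries, bars the mean and SD; KO and FL are apart for Kdelr3, Sec24a and Tmed6, and overlap for Sec11c.

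Markers of other cell types were followed beside the members. Acinar cells of the exocrine pancreas also secrete heavily, and 0 of 22 acinar genes tested were called by limma or the exact Wilcoxon rank test, and 0 at an unadjusted limma p under 0.05, with summed levels of 5637 to 15073 FPKM in FL and 3765 to 27326 in KO. Within FL, libraries 1 and 2 had the highest acinar sums (15073 and 14941 FPKM) and also the highest Kdelr3 (9.12 and 7.79) and Tmed6 (18.2 and 17.0). FL library 3, the next by acinar sum (10488 FPKM), had the lowest Kdelr3 of FL (6.20) and the next highest Tmed6 (15.5 FPKM). FL libraries 5 and 4, with sums of 8119 and 5637, held Kdelr3 at 6.64 and 6.40 and Tmed6 at 12.1 and 12.5 FPKM. Within KO, libraries 5 and 4 had the highest sums (27326 and 11233 FPKM), with Kdelr3 at 25.5 and 25.2 and Tmed6 at 37.3 and 43.6 FPKM. KO libraries 1 and 3 (6743 and 3986 FPKM) held Kdelr3 at 22.3 and 19.5 and Tmed6 at 36.1 and 34.7. KO library 2 had the lowest sum of all 10 libraries, with Kdelr3 at 21.4 and Tmed6 at 39.0 FPKM, both above every FL library. Of 6 stellate and fibroblast genes, 6 were higher in KO (sums of 17.9 to 26.5 and 34.4 to 42.8 FPKM). Endothelial genes were higher for 4 of 7 (138 to 158 and 167 to 213 FPKM), and macrophage and leukocyte genes for 2 of 6 (196 to 242 and 252.2 to 304 FPKM). β cell genes were lower for 6 of 9, α cell genes for 2 of 6 and δ and PP cell genes for 1 of 6, while of 6 ductal genes 1 was higher and 1 lower. Over all genes tested, 9.05% were higher and 16.5% lower. The counts of lower δ and PP genes and of lower ductal genes were near the latter share. The part of these marker differences in the members' results was not tested.

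Beside the members, 93 other genes of the pathway were listed and 89 tested, of which 10 (11.2%) were called higher and 17 (19.1%) lower, near the 9.05% and 16.5% of all genes. After median ratio rescaling, 16 were higher and 13 lower, beside 12.4% and 11.7% of all genes. Their median log2 fold change was −0.01.

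Among partners of the translocon, 2 of 8 were higher and 1 lower (25.0% and 12.5%, beside 9.05% and 16.5% of all genes). Dnajc1, a J-domain protein near the translocon that works with BiP, was higher by 0.29 ± 0.08 (SE) (limma adjusted p = 0.0173). Its groups overlapped, with FL library 5 above KO library 5, and the exact Wilcoxon rank test did not call it (adjusted p = 0.0642). Hyou1, which helps BiP exchange nucleotide, was lower, with FL libraries at 342 to 373 FPKM, KO libraries at 284 to 312 FPKM and a log2 fold change of −0.26 ± 0.04 (SE) (limma adjusted p = 0.00189).

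Of 12 genes of the oligosaccharyltransferase, which attaches N-glycans next to the channel, 3 were lower by limma (25.0%, beside 16.5% of all genes). By limma 0 were higher, beside 9.05% of all genes, nor were any higher by the exact Wilcoxon rank test or at an unadjusted limma p under 0.05. Rpn2 had the largest fall, from 544 ± 60.9 FPKM in FL to 433 ± 31.6 FPKM in KO (−0.33 ± 0.08 (SE), limma adjusted p = 0.0157), with FL library 3 below KO library 3 and the call lost after upper quartile rescaling (adjusted p = 0.0617) and by the exact Wilcoxon rank test (adjusted p = 0.0642). Of 18 genes for membrane protein insertion, 1 was higher and 4 lower (5.56% and 22.2%, beside 9.05% and 16.5% of all genes). Ccdc47, a subunit of the PAT complex, was higher by 0.21 ± 0.06 (SE) (limma adjusted p = 0.0278), a call lost by the exact Wilcoxon rank test (adjusted p = 0.0642) and by limma without FL library 1 or 4 or KO library 1, 3 or 4 (adjusted p = 0.0556 to 0.0644). Tmem147, which binds Nicalin and NOMO at the translocon, was lower, at −0.38 ± 0.08 (SE) (limma adjusted p = 0.00510).

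COPII partners and other cargo receptors had 5 of 21 higher and 7 lower (23.8% and 33.3%, beside 9.05% and 16.5% of all genes). Mcfd2, the partner of Lman1 in carrying coagulation factors, went from 90.9 ± 1.99 FPKM in FL to 125 ± 8.22 FPKM in KO. Its groups did not overlap (log2 fold change 0.45 ± 0.05 (SE), limma adjusted p = 1.13e-04), whereas Lman1 itself was not called. Tmed8 fell from 57.3 ± 4.82 to 37.4 ± 2.203 FPKM, also without overlap (−0.60 ± 0.06 (SE), limma adjusted p = 8.03e-05).

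Of 10 COPI partners, 2 were higher and 1 lower (20% and 10%, beside 9.05% and 16.5% of all genes). Copz2, the alternative ζ subunit, went from 60.0 ± 2.36 FPKM in FL to 90.9 ± 7.48 FPKM in KO (log2 fold change 0.59 ± 0.06 (SE), limma adjusted p = 5.09e-05), while its paralog and member Copz1 was not called at 0.05 (interval −0.07 to 0.17). Arf3, a small GTPase of the family that recruits coats at the Golgi, was lower, at −0.24 ± 0.05 (SE) (limma adjusted p = 0.00383). Of 20 tethers and SNAREs between the ER and the Golgi, 1 was lower by limma (5%, beside 16.5% of all genes). By limma 0 were higher, beside 9.05% of all genes, again with 0 higher by the exact Wilcoxon rank test and at an unadjusted limma p under 0.05. The gene called was Nbas, a subunit of the tether that receives COPI vesicles at the ER, at −0.30 ± 0.05 (SE) (limma adjusted p = 0.00252).

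**Figure D4:**
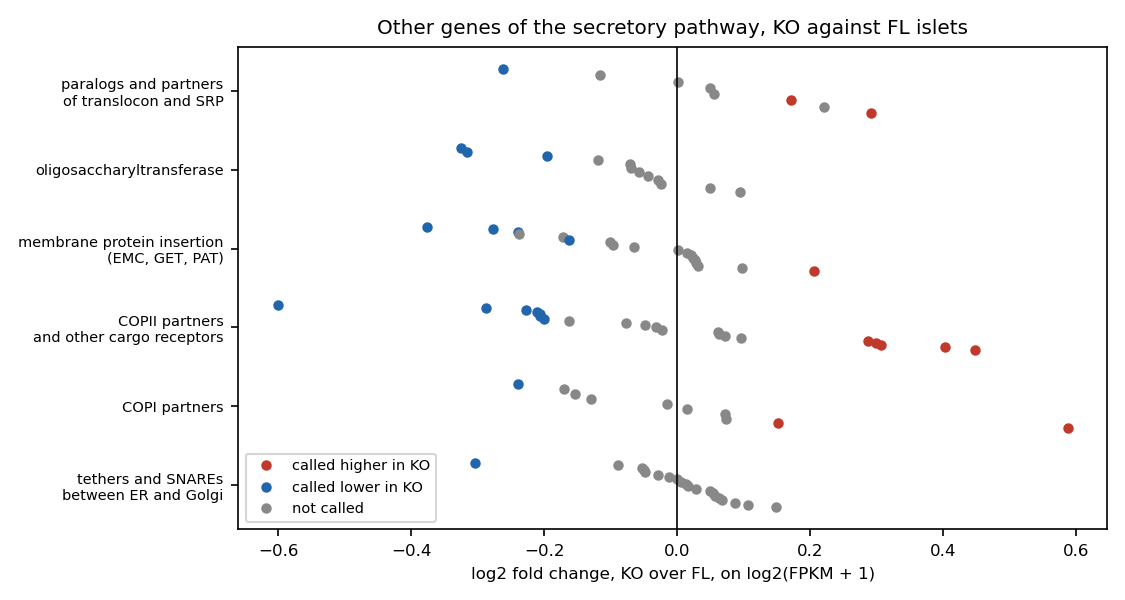
Log2 fold change, KO over FL, on the log2(FPKM + 1) scale for the 89 other genes of the pathway that were tested, 1 dot per gene, by list. Red marks genes called higher in KO, blue lower and grey not called; the dots run from −0.60 (Tmed8) to 0.59 (Copz2).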

How the data were processed

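RNA of islets from 5 FL and 5 KO mice was sequenced as single-end reads of 75 bases from stranded libraries, and each mouse gave 1 library. The values deposited by the authors are FPKM, held in a single table; the submitters' processing notes name STAR 2.5.2a, Cuffnorm 2.2.1 and GRCm38. How FPKM were scaled between libraries was not given in the sources used here. FPKM do not hold read numbers, so counting error was not computed. Group comparisons used limma 3.58.1 in R 4.3.3, with lmFit and trended eBayes and no covariate, on log2(FPKM + 1). The fit covered the 13065 genes whose FL or KO mean reached 1 FPKM, with Benjamini-Hochberg adjustment and calls at an adjusted p of at most 0.05. Fold changes on this scale understate changes of low genes. Single genes also had an exact two-sided permutation test. Coordinates came from GENCODE release M21 (GRCm38); 34 of 50 members matched with their version and the others by identifier without it. Promoters came from RefSeq (GRCm38.p6), and windows inside an annotated gene were not printed.

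The members and all lists were chosen with earlier results of these data known. Genes named were members called or without overlap between groups, the most abundant member of each role, paralogs, and the largest rise and fall of each other list. Alternatives were other pseudocounts (0.1 and 0.01), filters (none, 5 FPKM), 4 rescalings, limma settings, a replicate block, an exact Wilcoxon rank test, stricter calls (adjusted p of at most 0.01, or also 1.5-fold) and leaving out each library. Simulated data for KO against FL held 11505 genes, of which 11305 were unchanged. Of genes changed by 0.25 on the log2 scale, 15 of 50 were called. At 0.5, 1 and 1.5 these were 44, 45 and 49 of 50. No 2 libraries were identical.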

Additional observations from a re-analysis of the deposited data

Results flagged for a closer look

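In 10 of 118 sets of 5 libraries (the members and the named genes, by group), the highest or lowest library was apart from the others, with a gap to its neighbour over the whole range (the gap ratio) above 0.71. Chance gives about 1 in 20 sets, or 5.9. FL library 4 was the high one in 7 of the 10. These were Sec62 at 103 FPKM beside 78.3 to 84.7 (gap ratio 0.735), Ssr3 at 216 FPKM beside 181 to 191 (gap ratio 0.720), Sar1a at 141 FPKM beside 117 to 124 (gap ratio 0.719) and Sar1b at 85.2 FPKM beside 72.3 to 73.3 (gap ratio 0.919). The remaining ones in that library were Tmed10 at 123 FPKM beside 105 to 107 (gap ratio 0.923), Copb1 at 120.2 FPKM beside 107 to 111 (gap ratio 0.717) and Copb2 at 186 FPKM beside 167 to 172 (gap ratio 0.756). None of these 7 genes was called by limma on the deposited FPKM, with or without FL library 4. The exact Wilcoxon rank test called Tmed10 lower (adjusted p = 0.0415), and limma called Copb2 higher under 3 of the 4 rescalings. In KO library 5, Sec61a1 at 157 FPKM beside 142 to 146 (gap ratio 0.731) was high and Sec11a at 173 FPKM beside 198 to 205 (gap ratio 0.800) was low. In KO library 3, Kdelr1 at 179 FPKM beside 169 to 172 (gap ratio 0.725) was high. The cause was not tested.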

How the results depend on the processing

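Kdelr3, Tmed6, Srpr, Ssr4, Sec11c, Spcs2, Sec13, Sec24a and Tmed3 kept their direction and their call under every rescaling, filter, pseudocount, tool and left-out library tried, with limma or Wilcoxon adjusted p of at most 0.0415; only Kdelr3 and Tmed6 also exceeded 1.5-fold. After rescaling by median ratio, upper quartile and quantiles, members called higher were 16, 16 and 17, the added ones being Srp68, Sec11a, Spcs1, Sec23a, Sec22b and Copb2, and with quantiles Srp14. With the same sum (TPM) 11 were higher, Sec23a being added, and with sample weights 12 higher and 3 lower, with Sec61g, Sec23a and Sec16a added, while 11.0% of all genes were called higher and 21.7% lower with these weights. The exact Wilcoxon rank test called 8 higher, without Sec63 and Srp19, and 3 lower, with Tmed10 added. Other pathway genes called higher were 16, 17 and 17, and those called lower were 11 after upper quartile rescaling and 11 after scaling to the same sum (TPM), beside 12.4%, 12.8% and 11.4% of all genes higher and 11.1% and 11.7% lower. The members' median log2 fold change was 0.0749, 0.0832, 0.0642 and 0.0602 under the 4 rescalings. The share of all calls that were higher went from 35.5% to 51.3%, 53.5%, 46.7% and 47.6%. The median of all genes went from −0.0561 to −0.0038, 0.0039, −0.0161 and −0.0179, so it came close to 0. Sec61b turned to 0.021, 0.0293, 0.0172 and 0.0061 and Cope to 0.051, 0.0593, 0.037 and 0.0362. At an adjusted p of at most 0.01, 8 members were higher and 1 lower, 4 other pathway genes higher and 10 lower, and 622 of all genes higher and 1044 lower. With a 1.5-fold minimum these were 2 and 0, 1 and 1, and 349 and 290. The exact Wilcoxon rank test called 5 other pathway genes higher and 13 lower (5.62% and 14.6%), beside 6.67% and 12.5% of all genes.

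Leaving out each library in turn gave 9 to 10 members higher, 2 lower throughout, 6 to 9 other pathway genes higher, 13 to 20 lower, beside 7.17% to 8.65% of all genes higher and 12.2% to 18.1% lower, and a members' median from −0.0048 to 0.0379. Sec63 was the member whose call depended on a library. Cope ranged from −0.0348 to 0.0273 and Kdelr1 from −0.0033 to 0.0396, both turning sign. FL and KO libraries share replicate numbers in their titles, but same-numbered libraries did not deviate together (correlations of −0.10 to 0.003). Whether same-numbered mice shared a litter or a day of isolation cannot be read from these correlations. With the replicate block, 8 members were called higher, 1 lower and 6 other pathway genes higher, beside 6.69% of all genes higher and 11.4% lower; Sec63, Srp19 and Sec24c lost their calls (limma adjusted p = 0.0699, 0.0647 and 0.05004), and no library correlated best with its own number. The cause of these shifts was not tested. Changes of about 0.25 on the log2 scale were often missed in simulated data, where 11305 of 11505 genes were unchanged. In the data 1183 genes were called higher and 2150 lower. The adjustment was thus stricter in the simulation, and its recovered shares may not hold for the data. Depth could be estimated only relative to FL library 1.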
